A study of Mus musculus with 10 samples.

Results

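The AP-1 transcription factors were followed as 8 genes chosen by name: Fos, Fosb, Fosl1, Fosl2, Jun, Junb, Jund and Atf3. They were read by 12 probe sets (groups of array probes for 1 transcript), all of which passed the filter on low signals, and stood among 14840 genes tested. The study hybridized RNA of 5 mouse mammary tumour lines to 10 arrays, 2 per line. Line E is epithelial and was grown from a mammary adenocarcinoma that arose spontaneously in a female of the strain FVB/N-TgN(MMTVneu)202Mul, whose neu (Erbb2) transgene is under the control of the mouse mammary tumour virus promoter. The mesenchymal lines, named M1 to M4, were grown from relapsed tumours of female FVB/N mice that had received E cells, so all 4 descend from the E line. All cells were cultured without an added drug in serum-containing RPMI medium and collected before full confluence. Each M line is a single relapse, and there is 1 epithelial line. The sources used here do not say whether paired arrays stand for separate cultures, so p-values reflect array-to-array spread within lines alone, and that spread may be technical.

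AP-1 is a family of dimers of basic leucine zipper (bZIP) proteins. A Jun protein pairs with itself or with a Fos or ATF protein, whereas Fos proteins need a Jun partner to bind DNA. Fos, Fosb, Jun and Junb are immediate early genes, switched on within minutes of growth factor or serum signalling through the MAP kinases, and Jund is the more constantly expressed Jun gene. Fosl1 (which encodes FRA1) is a later gene that AP-1 itself can activate, and its protein is widely studied in mesenchymal and invasive mammary tumour cells. Atf3 encodes a bZIP factor that is induced by stress.

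The upstream sequence of 3 members is shown because each held a match to a motif of the AP-1 and cAMP response element family, the element type through which these genes can be controlled by bZIP proteins. Each stretch is the 120 bases before the transcript start, 5′ to 3′ on the gene's strand, from RefSeq on GRCm38.p6, with the match in capitals. The Fos stretch lies at chr12:85473770-85473889 on the plus strand, that of Jun at chr4:95052223-95052342 on the minus strand and that of Atf3 at chr1:191183334-191183453 on the minus strand.
Fos: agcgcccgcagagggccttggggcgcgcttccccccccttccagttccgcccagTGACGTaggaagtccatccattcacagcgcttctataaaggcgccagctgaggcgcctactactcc
Jun: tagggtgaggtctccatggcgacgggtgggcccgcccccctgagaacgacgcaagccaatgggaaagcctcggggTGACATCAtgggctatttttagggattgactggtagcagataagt
Atf3: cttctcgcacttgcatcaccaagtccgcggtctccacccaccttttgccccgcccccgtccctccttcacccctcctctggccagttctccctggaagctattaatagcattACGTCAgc
In Fos the match was TGACGT, from -66 to -61 relative to the transcript start. In Jun it was TGACATCA, a form of TGACNTCA, from -45 to -38. In Atf3 the match to TGACGT lay on the opposite strand, from -8 to -3. Over 250 bases upstream, with both strands searched, TGACGT stood in 2 of 7 members with a promoter entry and in 6.47% of 32851 promoters, and TGACNTCA in 1 of 7 and in 7.49% of promoters. The AP-1 motif TGANTCA was found in 0 of 7 members and 6.75% of promoters, and the CArG box, the motif of serum response factor, in 0 of 7 and 1.47%. The motif TGACGT is contained in TGACNTCA when N is G. Junb, Jund, Fosb and Fosl2 had no match to these letters in this window, and Fosl1 had no promoter entry. Sequence beyond 250 bases upstream was not searched, so a CArG box or other site farther away would be missed.

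The deposited values are linear signals, and every change is a difference of log2(signal + 32) with its standard error (SE) from limma. Calls needed a change of 2-fold or more together with a Benjamini-Hochberg adjusted p under 0.05, adjusted over the 14840 genes, and "rose" and "fell" are used of called genes only. Across genes, paired arrays had correlations of 0.993 to 0.994. The trimmed mean signal was 299 and 264 on the E arrays and 181 to 272 on the M arrays, so the median gene changed by -0.21 between E and the mean of the M lines, against 0.04 after quantile normalization, 0.19 after median centring and 0.02 after scaling to 9 hybridization controls. Of the genes called, 33.6% were higher in the M lines under the deposited scaling and 52.2%, 57.3% and 49.3% under these 3 alternatives. Most markers went with the labels: 11 of 12 epithelial markers fell and 11 of 12 mesenchymal markers rose. The keratin Krt8 nevertheless kept a mean signal of 4538 to 7947 in M2, M3 and M4. The mesenchymal marker Vim was not called (0.31). Its mean signal was already 9644 in E, against 7488 in M3 and up to 16510 in M1. The summed signal of leukocyte markers was 281 in E, against 342 to 438 over the M lines, with Ptprc, which marks all leukocytes, at 15.1 or less. Of 8 tested, 0 were called by limma, and 3 had an adjusted p under 0.05 with a change under 2-fold. The largest changes were 0.66 for Cd68, 0.61 for Lyz2 and -0.34 for Laptm5. Mean Cd68 signal was 56.95 in E and 86.15 to 133.4 over the M lines. The summed signal of endothelial markers was 68.4 in E, against 63.9 to 123 over the M lines. Of 4 tested, 0 were called by limma and 1 had an unadjusted p under 0.05. In RNA from a whole culture, fewer cells of a type and less RNA per cell cannot be told apart.

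**Figure D1:**
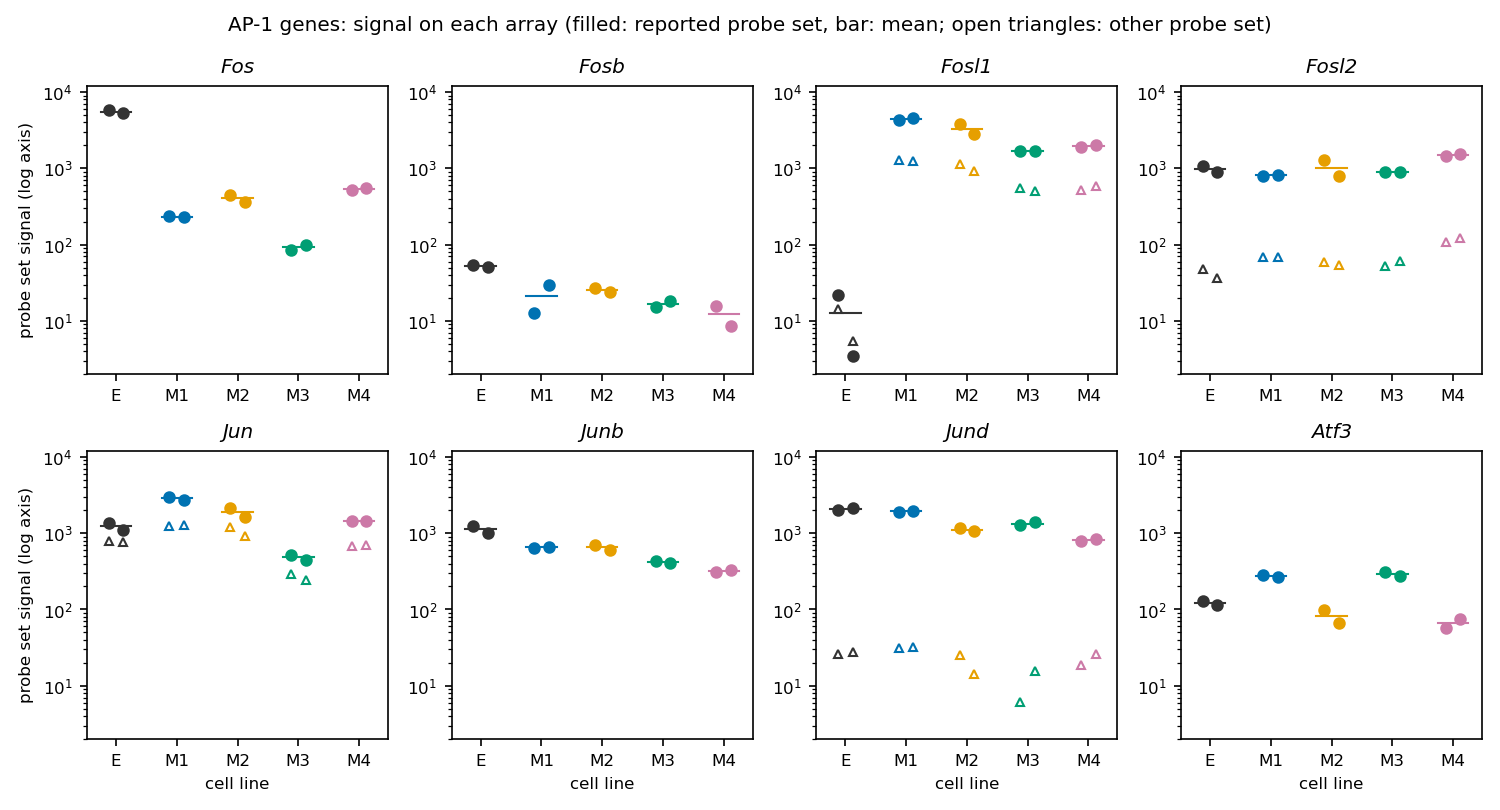
Signal of each AP-1 gene on each of the 10 arrays, by cell line, on a log axis; filled points are the reported probe set, bars the mean of the 2 arrays of a line, and open triangles the other probe set of genes that have a pair. Fos runs from 5294 or more in E to 553 or less in every M array, and Fosl1 from 21.9 or less in E to 1695 or more in every M array.

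Fos fell in all 4 mesenchymal lines. Its probe set 1423100_at read 5734 and 5294 on the E arrays, 237 and 228 on M1, 441 and 365 on M2, 86.1 and 100.2 on M3, and 525 and 552.5 on M4. Every M array was far below both E arrays, and M3 was the lowest line. The mean of the M lines was 18.4-fold below E, a log2 change of -4.20 (SE 0.13, adjusted p = 2.33e-32, limma). By line, M1 changed by -4.39, M2 by -3.68, M3 by -5.47 and M4 by -3.28, each with an SE of 0.16. From high to low the order was E, M4, M2, M1 and M3. Each neighbour in that order differed at an adjusted p under 0.05 in limma, the closest pair being M4 and M2 (0.40, SE 0.16, adjusted p = 0.0462).

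Fosl1 moved the other way, from near the array background in E to a strong signal in every M line. Probe set 1417487_at read 21.9 and 3.5 on the E arrays, 4364 and 4545 on M1, 3763 and 2823 on M2, 1695 and 1707 on M3, and 1926 and 2017 on M4. The groups did not overlap, and M1 and M2 were above M3 and M4. On E replicate 1 the signal was just above that array's 40th percentile (21.3), and on E replicate 2 it was below it (17.3). The mean change was 5.94 (SE 0.12, adjusted p = 1.2e-38, limma), or 61.2-fold on this scale. Its size depended on the pseudocount, since it was 7.16 with a pseudocount of 8 and 4.31 with one 4 times the reported 32. By line, M1 changed by 6.68, M2 by 6.23, M3 by 5.31 and M4 by 5.52. The other probe set, 1417488_at, read a mean of 9.85 for E and 530 to 1263 for the M lines and rose by 4.30 (SE 0.13). In the order M1, M2, M4, M3, E, only the neighbours M4 and M3 missed an adjusted p of 0.05 (0.21, adjusted p = 0.334, limma), though their arrays did not overlap.

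Fosb was low on all arrays and was not called. Its encoded protein pairs with Jun proteins as Fos does. Probe set 1422134_at read 54.0 and 50.9 on the E arrays, 12.6 and 29.9 on M1, 27.4 and 23.6 on M2, 15.2 and 18.4 on M3, and 15.8 and 8.5 on M4. Both E arrays were above all 8 M arrays. The mean change of -0.74 (SE 0.16, adjusted p = 7.5e-05, limma) stayed under 2-fold with the pseudocount of 32 and was -1.22, past the threshold, with a pseudocount of 8. The arrays of M1 overlapped those of every other M line, and the range over the 4 line means was 0.39 (adjusted p of the F test = 0.361, limma).

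Fosl2, which encodes FRA2, the close relative of FRA1, was not called in any line. Probe set 1437247_at read 1071 and 894 on the E arrays, 795 and 818 on M1, 1267 and 782 on M2, 896 and 890.4 on M3, and 1463 and 1541 on M4. The E arrays lay inside the range of the M arrays, M4 was highest, and the M2 arrays were the farthest apart. The mean change was 0.06 (SE 0.13, adjusted p = 0.718, limma). M4 differed from E by 0.60 (SE 0.16, adjusted p = 0.00102, limma), under 2-fold; after quantile normalization, median centring or scaling to the hybridization controls that change was 1.21, 1.2 and 1.17 and was called. The weaker probe set 1422931_at read 36.1 to 123 over all arrays and was also highest in M4. Unlike the reported probe set, it had both E arrays (48.6 and 36.1) below every M array (53.2 or more). Its mean change was 0.491 (SE 0.135, adjusted p = 0.00259, limma). In M4 it changed by 0.989 (SE 0.171, adjusted p = 1.21e-05, limma), and both changes were under 2-fold.

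Jun rose in M1 and fell in M3, so its mean over the M lines was near that of E. Its protein, c-Jun, is the most studied partner of Fos. Probe set 1417409_at read 1365 and 1097 on the E arrays, 2980.1 and 2716 on M1, 2127 and 1633 on M2, 524 and 442 on M3, and 1463.2 and 1463.1 on M4. M1 was above E and M3 below it on every array, and the M arrays as a whole spanned the E arrays. The mean change was 0.19 (SE 0.12, adjusted p = 0.158, limma). It was 1.2 in M1 (adjusted p = 8.91e-10) and -1.29 in M3 (adjusted p = 8.06e-11), while M2 (0.59) and M4 (0.25) were not called, all by limma with an SE of 0.15. In the order M1, M2, M4, E, M3, neither M2 and M4 nor M4 and E differed at an adjusted p under 0.05. The second probe set, 1448694_at, fell in M3 (-1.44) and gave 0.65 in M1, which was not called. The M3 call was lost after quantile normalization (-0.79), median centring (-0.77) and scaling to the hybridization controls (-0.88), and the M1 call when probe sets were averaged (0.93).

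Junb was lower in every M line. It encodes a Jun protein that activates transcription less strongly than c-Jun and can restrain it. Probe set 1415899_at read 1227 and 1014 on the E arrays, 646 and 655 on M1, 710 and 593 on M2, 431 and 408 on M3, and 306 and 325 on M4. All 8 M arrays were below both E arrays, and M4 was the lowest line. The mean change was -1.14 (SE 0.12, adjusted p = 3.01e-11, limma), or 2.21-fold. It fell in M3 (-1.35) and M4 (-1.72) and was -0.75 in M1 and -0.75 in M2, short of 2-fold. M1 and M2 overlapped (0.00, adjusted p = 0.992, limma). M3 and M4 did not overlap, and their difference of 0.38 (SE 0.16) just missed the threshold (adjusted p = 0.0549, limma). The mean call was lost under the 3 other scalings (-0.76 quantile, -0.74 median, -0.81 hybridization controls), without line M4 (-0.95), and with the 5 line means as the units (adjusted p = 0.196, limma).

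Jund, the Jun gene whose level usually depends least on stimulation, fell in M4. Probe set 1449117_at read 2030 and 2105 on the E arrays, 1890 and 1975 on M1, 1168 and 1053 on M2, 1264 and 1397 on M3, and 787 and 828 on M4. All M arrays were below both E arrays, those of M1 by little. The mean change of -0.73 (SE 0.11, adjusted p = 6.15e-08, limma) was under 2-fold. M4 fell by 1.32 (SE 0.14, adjusted p = 6.05e-12, limma), whereas the difference of 0.10 between E and M1 missed the threshold (adjusted p = 0.597). The M4 call was lost under the 3 other scalings (-0.76 quantile, -0.72 median, -0.76 hybridization controls) and when probe sets were averaged (-0.72). The other probe set, 1440265_at, was near the array background in every line.

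Under the deposited scaling, Atf3 split the mesenchymal lines into a higher and a lower pair around E. Probe set 1449363_at read 127 and 116 on the E arrays, 283 and 268 on M1, 97.4 and 65.8 on M2, 310.1 and 279 on M3, and 57.8 and 75.6 on M4. The M1 and M3 arrays were all above E, and the M2 and M4 arrays were all below it. The mean change was 0.25 (SE 0.14, adjusted p = 0.113, limma). Atf3 rose in M1 (1.00, adjusted p = 2.71e-06) and in M3 (1.09, adjusted p = 4.13e-07) and was not called in M2 (-0.45) or M4 (-0.64), all by limma with an SE of 0.17. M3 and M1 did not differ beyond their spread (0.09, adjusted p = 0.756), nor did M2 and M4 (0.20, adjusted p = 0.428). With a pseudocount 4 times larger the M1 and M3 changes were 0.69 and 0.76 and were not called, and the M1 call was also lost without E replicate 2 (0.95) or M1 replicate 1 (0.97).

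Over the whole family, the mean contrast called 1 of 8 members higher (Fosl1), against 7.34% of all genes, and 2 lower (Fos and Junb), against 14.5%. The members' median change was -0.34, and that of all genes -0.21. In M1, 3 rose (Fosl1, Jun and Atf3; 8.6% of all genes) and 1 fell (Fos; 12.5%). In M2, Fosl1 alone rose (8.58%) and Fos alone fell (11.8%). In M3, 2 rose (Fosl1 and Atf3; 7.7%) and 3 fell (Fos, Jun and Junb; 19.8%). In M4, Fosl1 rose (6.65%) and Fos, Junb and Jund fell (20.1%). These contrasts share the same 2 E arrays. Fos and Fosl1 were the members called in all 4 lines, and they were also called when the 5 line means were the units, where 10.6% of all genes were called: the adjusted p was 0.0168 for Fos and 0.000747 for Fosl1 (limma, 3 residual degrees of freedom). The E arrays lay outside the range of the 8 M arrays for 5 of 8 members (Fos, Fosb, Fosl1, Junb and Jund) and for 41.7% of all genes.

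**Figure D2:**
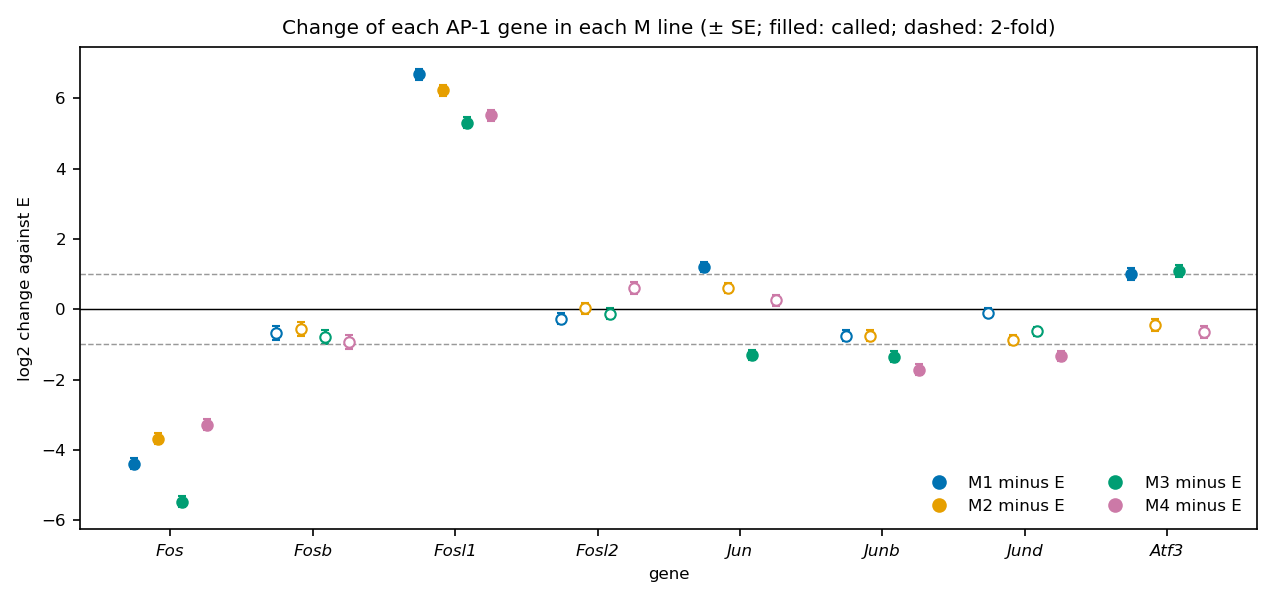
Log2 change of each AP-1 gene in each M line against E, with its SE; filled points are called, open points are not, and dashed lines mark 2-fold. Fos lies between -5.47 and -3.28 and Fosl1 between 5.31 and 6.68, while the other 6 genes stay between -1.72 and 1.2.

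Fos and Fosl1 were also the members whose mean call did not depend on the scaling. Over the 3 other scalings and 2 other pseudocounts the change of Fos ran from -4.35 to -3.78 and that of Fosl1 from 4.31 to 7.16, each called every time. Junb kept its call with both pseudocounts (-1.18 and -1.01) and lost it under each scaling, and Fosb gained one with the smaller pseudocount alone.

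**Figure D3:**
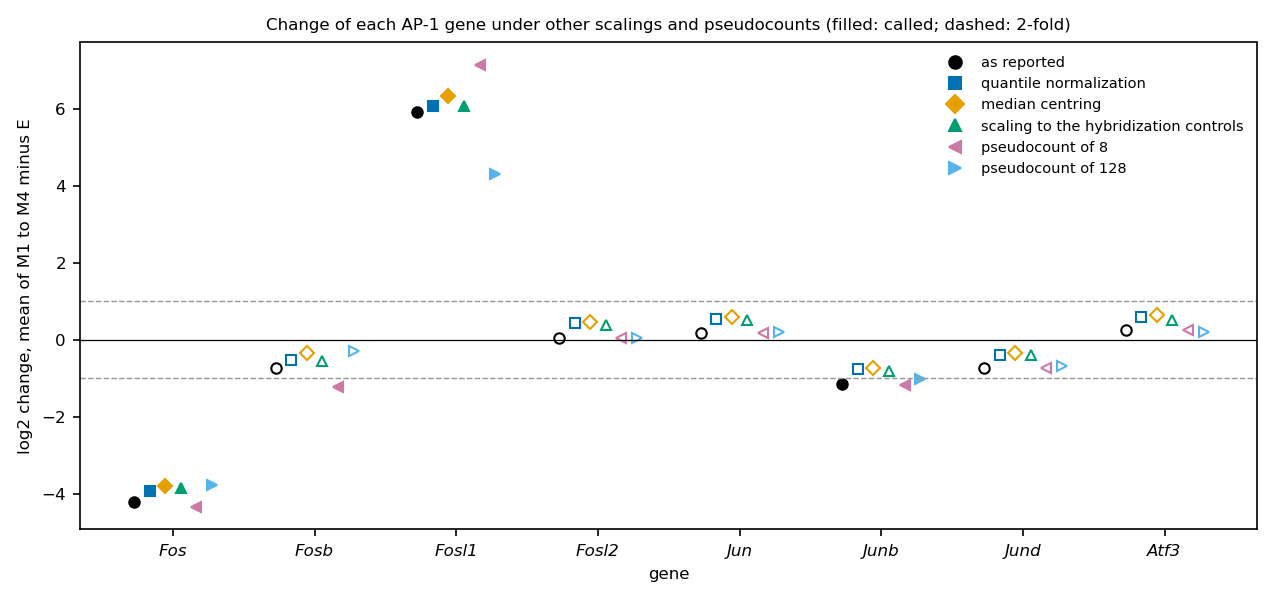
Log2 change of each AP-1 gene between E and the M lines' mean under the reported setting, 3 other scalings and 2 other pseudocounts; filled points are called and dashed lines mark 2-fold. Fos stays at -3.78 or lower and Fosl1 at 4.31 or higher, while Junb is called under the deposited scaling with each of the 3 pseudocounts and not under the other scalings.

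The mesenchymal lines also differed from one another. Across M1 to M4, 5 of 8 members passed the F test with a range of at least 2-fold, against 22.4% of all genes. The ranges were 2.19 for Fos (M4 over M3), 1.37 for Fosl1 (M1 over M3), 2.49 for Jun (M1 over M3), 1.23 for Jund (M1 over M4) and 1.73 for Atf3 (M3 over M4), with adjusted p-values of 1.09e-09 or less (limma). Junb had a range of 0.97 and Fosl2 of 0.87, both under 2-fold. Between pairs of lines, 1 of 8 members was called for M1 and M2 (4.54% of all genes), 3 for M1 and M3 (11%), 4 for M1 and M4 (8.96%), 3 for M2 and M3 (7.29%) and 3 for M3 and M4 (10.3%). For M2 and M4, 0 of 8 members were called by limma (6.32% of all genes). Between these lines 5 members had an adjusted p under 0.05 with a change under 2-fold, and 6 had an unadjusted p under 0.05. Jun was highest in M1 and lowest in M3, which were 2.49 apart (SE 0.15, adjusted p = 1.51e-19, limma). Atf3 paired M1 with M3 instead: it was higher in M1 than in M2 (1.45) and M4 (1.65), and higher in M3 than in M2 (1.54 apart) and M4 (1.73).

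The kinases and nuclear factors that act on AP-1 genes moved in both directions. Of 25 tested, 4 were called higher in the mean contrast and 3 lower, where 7.34% of all genes were higher and 14.5% lower, with a median of -0.04, beside -0.21 for all genes. Mapk12 (p38 gamma) rose by 1.51 (SE 0.13), from 76.6 ± 4.03 (SD, n = 2) to between 157 and 483 on the M arrays. Map2k6, a kinase that activates p38, rose by 1.5 (SE 0.14), Elk3, a partner of serum response factor, by 1.37 (SE 0.12), and Map3k8, an activator of the ERK cascade, by 1.12 (SE 0.14). Not every line shared these rises. Mapk12 was not called in M4 (0.825), Map2k6 in M3 (0.525), Elk3 in M3 (0.524) or Map3k8 in M1 (0.501). Their ranges over the M lines were 1.13 to 1.54, and each passed the F test in limma. Mapk13 (p38 delta) fell most in this list, from 1754 ± 18 (SD, n = 2) in E to 8.5 or less on every M array (-5.63, SE 0.15, adjusted p = 7.07e-35, limma). Map3k1, which feeds the JNK cascade, changed by -1.64 (SE 0.15) and Mrtfb, a coactivator of serum response factor, by -1.18 (SE 0.13), and both fell. In M1, Mrtfb was not called (-0.861). The Mrtfb call was lost under the 3 other scalings (-0.79 quantile, -0.78 median, -0.85 hybridization controls) and with probe sets averaged (-0.69), as was that of Elk3 with probe sets averaged (0.83). With a pseudocount 4 times larger Map2k6 (0.72), Map3k8 (0.59) and Map3k1 (-0.89) were not called, and with the 5 line means as the units, of the genes named here, Mapk13 and Map3k1 alone kept a call. The genes of ERK5 (Mapk7) and of the JNK kinases (Mapk8, Mapk9 and Mapk10), picked out after their values were seen, had changes between -0.59 and 0.48 and were not called. Mapk7 (0.358), Mapk8 (-0.593) and Mapk9 (0.482) had an adjusted p under 0.05 in limma and missed the 2-fold limit alone. Mapk10 was near the array background, with line means of 4.45 to 17.15.

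Genes that dampen MAP kinase signalling were mostly lower beside the low Fos of the M lines. Of 16 tested, 9 fell and 3 rose, against 14.5% and 7.34% of all genes, with a median of -1.09, beside -0.21 for all genes. Under each of the 3 other scalings, and with a pseudocount 4 times larger, 7 fell and 3 rose. With the 5 line means as the units 6 fell and 2 rose. Dusp6, the phosphatase that acts on ERK, was at 11400 ± 53.5 (SD, n = 2) in E and 969 to 2473 on the M arrays, a change of -3.10 (SE 0.10, adjusted p = 1.15e-30, limma). Spry1, an inhibitor of receptor tyrosine kinase signalling, changed by -4.29 (SE 0.14), Spred1, an inhibitor of Ras signalling, by -2.15 (SE 0.12) and Dusp4, a nuclear MAP kinase phosphatase, by -2.04 (SE 0.13), and each fell in all 4 lines. Dusp9 (2.89, SE 0.14) and Dusp10 (2.23, SE 0.13) rose in all 4 lines, and Dusp1 (1.70, SE 0.11) rose in M1, M2 and M4 and lost its mean call with the 5 line means as the units (adjusted p = 0.148, limma).

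Other immediate early genes fell more often than they rose: 12 of 28 fell and 4 rose, against 14.5% and 7.34% of all genes, with a median of -0.77, beside -0.21 for all genes. After median centring 8 fell and 5 rose, and with the 5 line means as the units 4 fell and 3 rose. Egr1, a zinc finger factor induced by the same stimuli as Fos, read 6008 ± 574 (SD, n = 2) in E and 136 to 1077 on the M arrays, a change of -3.63 (SE 0.12, adjusted p = 2.83e-30, limma), and was lowest in M3, as Fos was. Nr4a1, an orphan nuclear receptor, changed by -3.37 (SE 0.12), Ccn2, a matricellular growth factor, by -3.11 (SE 0.13) and Egr2 by -2.29 (SE 0.14). Against that direction, Klf4, a Krüppel-like factor, rose from 12.4 ± 1.41 (SD, n = 2) to 1318 or more on every M array (5.59, SE 0.13). Gem, a small GTPase, rose by 2.62 (SE 0.14), Nr4a2 by 2.57 (SE 0.13) and Ier5 by 1.3 (SE 0.12), which was not called with probe sets averaged (0.79). Egr2, Ccn2 and Ier5 lost their calls with the 5 line means as the units (adjusted p of 0.139, 0.148 and 0.0997, limma). By line, Egr2 was not called in M2 (-0.996) and Ier5 was not called in M3 (0.793).

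Among 26 other bZIP genes tested, which include possible dimer partners of the family, 5 rose and 1 fell, against 7.34% and 14.5% of all genes, with a median of 0.29, beside -0.21 for all genes. Maf, the proto-oncogene of its subfamily, rose from 4.40 ± 3.11 (SD, n = 2) in E to 412 or more on every M array (4.11, SE 0.13, adjusted p = 7.97e-31, limma). Ddit3, which encodes the stress factor CHOP, rose by 2.21 (SE 0.12), more in M1 (2.91) and M3 (3.22), the lines with the higher Atf3 signal, than in M2 (1.37) and M4 (1.36), with a range over the M lines of 1.86 (adjusted p = 3.58e-17, F test in limma). Creb3l1, a membrane-bound factor, rose by 2.04 (SE 0.14) and Nfil3, a repressor, by 1.69 (SE 0.15). In M2, Nfil3 was not called (0.925). Bach1, which pairs with small Maf proteins and represses oxidative stress genes, fell by 1.33 (SE 0.12) and was just under 2-fold under the 3 other scalings (-0.97 quantile, -0.93 median, -0.99 hybridization controls). Ddit3 lost its call with probe sets averaged (0.90), Creb3l1 with a pseudocount 4 times larger (0.98), and Ddit3 and Nfil3 with the 5 line means as the units (adjusted p of 0.145 and 0.118, limma).

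Genes known as AP-1 targets rose more often than they fell, 20 against 4 of 37 tested, where 7.34% of all genes rose and 14.5% fell, with a median of 1.28, beside -0.21 for all genes. The list holds Vim and Fn1, which are also in the mesenchymal marker list. The gene lists were chosen with earlier results of these data known, so these shares only describe the list. AP-1 activity itself was not tested. Ptgs2, the inducible cyclooxygenase, had the highest change, from 1.60 ± 1.70 (SD, n = 2) in E to 5030 or more on every M array (7.47, SE 0.10, adjusted p = 6.81e-47, limma). Mt2, a metallothionein, changed by 6.52 (SE 0.11), Fgf7, a fibroblast growth factor for epithelium, by 6.15 (SE 0.11) and Axl, a receptor tyrosine kinase, by 6.0 (SE 0.12). The E signals of these genes were low, so the sizes depend on the pseudocount. Among those that fell, Lif, a cytokine, changed by -2.22 (SE 0.13), Hbegf, a ligand of the EGF receptor, by -2.17 (SE 0.12), Tnc, a matrix protein, by -1.37 (SE 0.15) and Ccnd1, which encodes cyclin D1, by -1.35 (SE 0.08). Ccnd1 fell in M2, M3 and M4 and changed by -0.46 in M1, which was not called. Its mean call was lost after median centring (-0.95) and scaling to the hybridization controls (-0.999), and that of Tnc after median centring (-0.97) and with a pseudocount 4 times larger (-0.80). With the 5 line means as the units Ccnd1, Tnc and Hbegf were not called (adjusted p of 0.202, 0.0518 and 0.0635, limma).

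**Figure D4:**
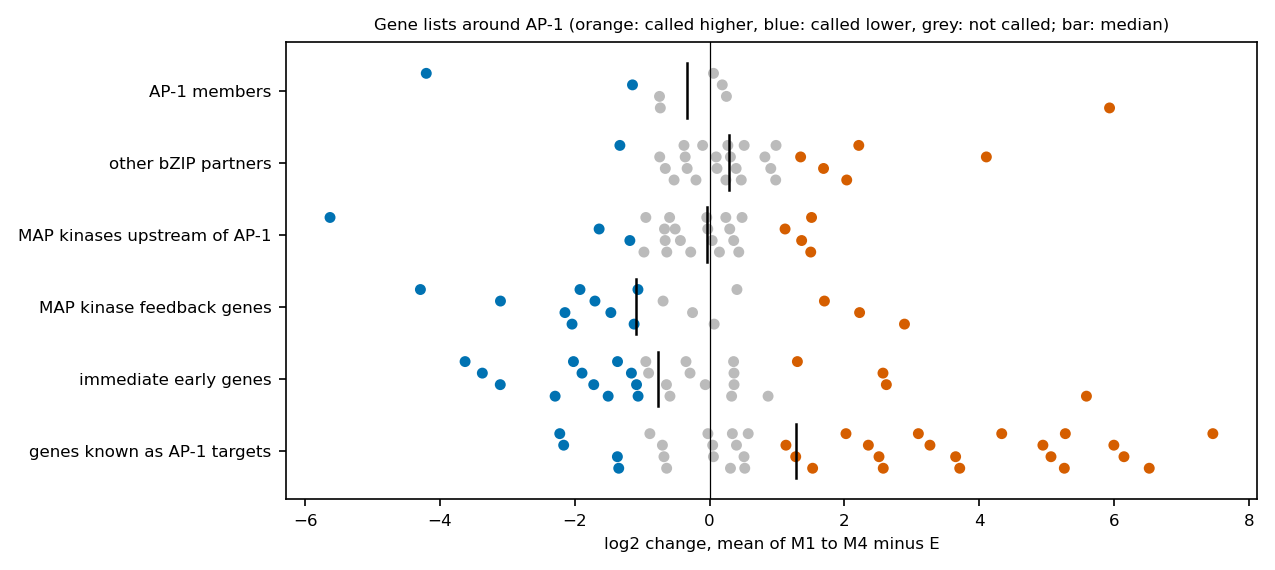
Log2 change between E and the M lines' mean for the AP-1 genes and for 5 gene lists around them; each point is a gene, orange called higher, blue called lower, grey not called, and the bar is the list's median. The median is -1.09 for the feedback genes, -0.77 for the immediate early genes and 1.28 for the known targets.

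The genes whose pattern over the 10 arrays was most like each called member's were found by Pearson's r among 6284 genes with a range of at least 2-fold over the 5 lines. The arrays come in pairs from 5 lines, so r describes these lines and has no p. For Fos the nearest were Dpm1 (r = 0.994), Sdc4 (0.993) and Egr1 (0.990), and 180 genes exceeded 0.95. For Fosl1 they were Trim47 (0.998), Praf2 (0.998) and Cav1 (0.998), with 289 genes over 0.95. Jun, with 53 genes over 0.95, was nearest to Aunip (0.989), Larp7 (0.989) and Cks2 (0.988), none of which was called in the mean contrast. For Junb the nearest were Cbx1, Cnp and Atp2c1 (0.992 to 0.993), and for Jund they were Ctla2b, Ttc3 and Plod2 (0.978 to 0.983). Atf3 was nearest to Gadd45a (0.989), Glce (0.986) and Stbd1 (0.984), with 21 genes over 0.95. Gadd45a, a stress-induced growth arrest gene, had a mean signal of 1273 in M1 and 1792 in M3, of 179 in M2 and 148 in M4, and of 466 in E, so it was also above E in M1 and M3 and below E in M2 and M4.

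**Figure D5:**
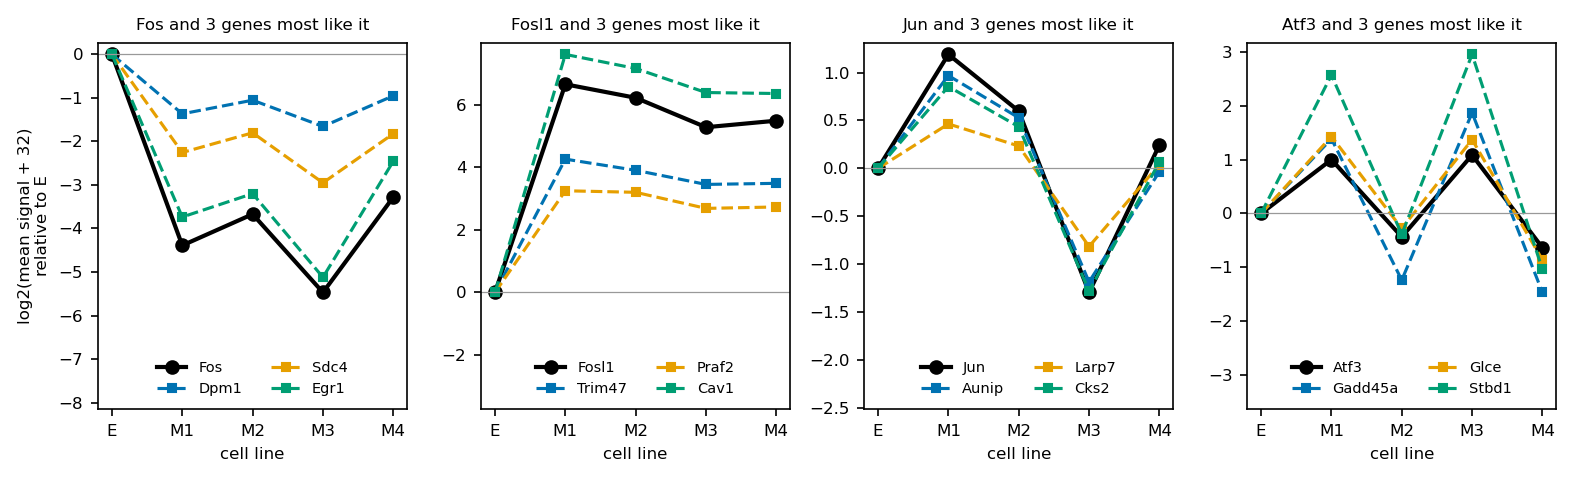
Line means of Fos, Fosl1, Jun and Atf3 (black) and of the 3 genes most like each (coloured, dashed), as log2(mean signal + 32) relative to E, by cell line; the 4 panels have different axes. Fos and its 3 nearest genes are lowest in M3, Jun and its nearest genes are highest in M1 and lowest in M3, and Atf3 and its nearest genes are above E in M1 and M3 alone.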

How the data were processed

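The deposited intensity values are linear probe set signals. GCOS 1.3 is named in the submitters' processing notes; the sources used here do not state how signals were computed and scaled. The platform annotation gave a single symbol to 34945 of 45101 probe sets, several to 932 and none to 9160; the 64 controls were left out. The filter kept probe sets that exceeded the 40th percentile of the array on 2 or more arrays, and a gene with several was read from the brightest by mean signal. limma 3.58.1 (R 4.3.3; lmFit, eBayes with a trend, a mean for each line) was run on log2(signal + 32) after being tested on simulated data. All lines shared the estimate of spread (5 residual and 41.4 prior degrees of freedom), and precision is limited by the number of arrays. The members and gene lists were chosen with earlier results of these data known. The text names all members, up to 4 called genes in each direction from each list, and the 3 genes most like each called member. Alternatives varied the pseudocount, floor, scaling, filter, probe set rule, replicate block, prior, unit, and the arrays and lines included.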

Additional observations from a re-analysis of the deposited data

Results flagged for a closer look

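The change against E differed between the M lines for 5 members, by a moderated F test across M1 to M4 (limma) with a range of at least 2-fold. The range of the log2 change was 2.19 for Fos, 1.37 for Fosl1, 2.49 for Jun, 1.23 for Jund and 1.73 for Atf3. For Fos and Fosl1 every line moved the same way against E. For Jun the change was 1.2 in M1 and -1.29 in M3, and for Atf3 it was 1.09 in M3 and -0.64 in M4, the latter not called. The range of Fosl1 was 0.99 after quantile normalization, and that of Jund was 0.77, 0.90 and 0.80 under the 3 other scalings and 0.73 when probe sets were averaged, so both were then under 2-fold. The trimmed mean signal, which was 249 and 252 on the M1 arrays, was 198 and 200.1 on the M3 arrays and 181 and 190.2 on the M4 arrays; its part in these ranges was not tested beyond those scalings.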

How the results depend on the processing

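The counts of AP-1 members called in the mean contrast, in M1, M2 and M4, and across the M lines stayed within 1.5 times under each alternative run. In M3 minus E, 3 members were called in place of 5 after quantile normalization, median centring or scaling to the hybridization controls, since Jun and Junb were then under 2-fold. No called change of a member reversed; 17 values that were not called changed sign. Fos and Fosl1 were called in every contrast against E under all alternatives. In the mean contrast Fos ran from -4.51 to -3.78 and Fosl1 from 4.31 to 7.16. Replicate numbers are balanced over the lines, so the replicate block could alter the SE of a log2 change but not its size. With it 3 members were called and 1089 genes were higher and 2148 lower, as without it. These counts therefore cannot show whether a batch matters. Deviations of same-numbered arrays, centred and taken over all genes, correlated at -0.07 to 0.06 between lines. A shared batch that moved overall signal or few genes would not show in these correlations. The labels do not say what the replicate numbers stand for. With 5 line means, 489 genes were higher and 1083 lower; with a floor of 64, 910 and 2209; with a pseudocount 4 times larger, 683 and 1398. List counts moved as follows. Other bZIP genes called higher numbered 9 with a pseudocount of 8 or after median centring, 8 after quantile normalization or without E replicate 2, and 3 with probe sets averaged or 5 line means, in place of 5, and Bach1 was under 2-fold under the 3 other scalings. Of the kinase list, 2 were higher with a pseudocount 4 times larger or a floor of 64, in place of 4, and 5 were lower with a pseudocount of 8, a floor of 64 or without E replicate 2, in place of 3; on 5 line means 0 were called higher by limma, with 4 at an unadjusted p under 0.05. On 5 line means 4 immediate early genes fell in place of 12, and 1 known target in place of 4; 2 targets fell after median centring. Signals near the background limit Fosb throughout and Fosl1 in E.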
